A study of Mus musculus with 28 samples.

Results

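The cell division genes described here are 41 genes that cells transcribe to copy their DNA and to separate their chromosomes. They were taken by gene symbol from a fixed list, which was chosen with earlier results of these data known. All 41 had a line in each of the 3 deposited tables, out of 20416 genes per table. By role, 14 act in S phase, the part of the cell cycle in which DNA is copied, 26 act in mitosis, and Ccnd1 encodes the cyclin that couples growth signals to entry into the cycle.

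Most liver cells of an adult mouse rest outside the cell cycle, whereas the liver of a young mouse is still growing. On entry into the cycle, D-type cyclins with their kinases release E2F factors from retinoblastoma proteins, and E2F factors switch on cyclin E and the replication machinery. Later, the factors FOXM1 and MYB, with the MuvB complex, switch on the genes of mitosis. The same MuvB core silences those genes in resting cells, through a promoter element called the cell cycle genes homology region (CHR). Proteins made in S phase include the MCM helicase, the clamp PCNA and the enzymes that supply deoxynucleotides. Those of mitosis include cyclin B with its kinase CDK1, the spindle motors, the kinetochores that hold chromosomes to the spindle, and the anaphase-promoting complex that ends mitosis by marking cyclins and other proteins for destruction.

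The livers came from male C57BL/6 mice of 2 models of non-alcoholic steatohepatitis, a disease with fat, inflammation and scarring in the liver. In the diet model, 4 livers came from mice on a methionine- and choline-deficient diet (MCD) and 4 from mice on the matched low-fat control diet (CD). The titles give 4 weeks on the diet and another label gives 5 weeks. In the STAM model, streptozotocin, a toxin of insulin-producing cells, is injected at postnatal day 2, and a high-fat diet is given from week 4. There were 5 STAM livers and 5 control-diet livers at 4 weeks of age, and 5 and 5 again at 10 weeks. The labels call the 4-week STAM livers high-fat-fed as well, and the time they had spent on that diet is not given in the labels. Whether the STAM controls received an injection is not given either. The STAM model joins streptozotocin with the high-fat diet, so that streptozotocin and diet cannot be told apart. Whether each replicate is a different mouse is not stated in the labels. The p-values therefore reflect the spread among these samples, part of which could be technical. Whole liver was sequenced, and more dividing cells of a type cannot be told apart from more of these messenger RNAs per cell.

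Levels are given as CPM, reads relative to the library's size after the authors' scaling, from libraries of 16184576 to 25911864 reads. Changes are log2 fold changes from limma, fitted within each table on 15312 genes, and calls were made where the p adjusted by Benjamini-Hochberg was under 0.05. All 41 genes passed the filter on low values in each table, and in each table both groups lay above the cutoff on their own. The fewest reads that any of the 41 genes had over the libraries of a group was 14. The tissue label held: the summed level of 6 hepatocyte markers (Alb, Ttr, Apoa1, Cps1, Hnf4a and Tat) was 39728 to 144842 CPM over the 28 livers. Directions are relative to the authors' scaling. The median change over all genes tested was 0.07 in MCD and 0.05 in 10-week STAM livers, against 0.49 and 0.33 when libraries were scaled by total reads instead. At 4 weeks it was 0.01 and 0.09. Of all genes tested, 3462 were called higher and 3079 lower in MCD livers, against 7588 and 1222 with total-read scaling; at 10 weeks these counts were 3876 and 3443, against 7019 and 953.

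One library stands apart. The 4-week control replicate 1 was the lowest of the 5 controls for 40 of the 41 genes, the exception being Ccne1, and the lowest of all 10 livers of its age for 39. Over the 15312 genes tested, the same library was the lowest control for 28.4%. Its share as the lowest of all 10 livers was not counted over all genes. Its log2 CPM minus the mean of the other 4 controls had a median of -4.45 over the 26 mitotic genes, of -1.74 over the 14 S-phase genes and of -0.016 over all genes tested. Its 16184576 reads are the fewest of its group, whose other libraries hold 17552258 to 20781724 reads. Its summed hepatocyte markers stood at 123778 CPM, against 127277 to 144842 in the other 4 controls. The 8 macrophage and monocyte markers summed to 197 CPM there and to 153 to 192 in the others, and the 5 cholangiocyte markers to 3.29 against 5.25 to 8.89. It was below the others too in the 6 erythroid and myeloid progenitor markers (30.3 against 40.6 to 54.2) and the 7 T and NK cell markers (2.39 against 2.98 to 4.17). Set beside the 10-week controls, which the authors scaled in a separate table, its level fell within their range for 19 of the 41 genes, below it for 14 and above it for 8. The other 4 controls of 4 weeks all lay above the 10-week range for 37 genes. These positions against the 10-week range were not counted over all genes, so what age or the separate scaling does to genes in general is not known here. Whether a wrong label, an older animal or a liver unlike the rest of its group lies behind these values cannot be told apart here, and each 4-week change with all livers carries that doubt. The 4-week calls of the 41 genes are therefore given with this library and without it, while some other 4-week values are given only with it or only without it.

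The DNA just upstream of these genes was read from the RefSeq promoter table of build GRCm38.p6, in which 33 of the 41 genes had an entry of 250 bases before to 50 after the start. Searched on both strands were the CHR (TTTGAA or TTCGAA), the CCAAT box bound by the factor NF-Y (CCAAT) and strict forms of the E2F site (TTTCCCGC, TTTGGCGC, TTTCGCGC or TTTGCCGC), none of which contains another motif. Matches of the E2F forms can overlap each other, as a pair of the 3 in Mcm6 does. Promoters of the mitotic genes held a CHR in 17 of 22 windows of 21 genes (77.3%), those of the S-phase genes in 2 of 13 windows of 12 genes (15.4%), and all 32851 promoter windows in 19.2%. A CCAAT box was found in 86.4%, 61.5% and 37.4% of these windows. An E2F match was found in 1 of the 22 mitotic windows (4.545%), in 5 of the 13 S-phase windows (38.5%) and in 2.265% of all windows. A match describes letters in a window and is not evidence of a bound site. The 120 bases before the start are printed for 5 mitotic and 3 S-phase genes to which the results return, with matched motifs in capitals, written 5′ to 3′ in the direction of transcription. Cdc20, Cdk1, Ube2c and Mki67 carry CHR and CCAAT motifs near the start or further up, Ccnf carries the same motifs but moved otherwise, Mcm6 has E2F matches, Mcm3 shows CCAAT boxes alone in this stretch, and the stretch of Tk1 holds none of the motifs.
Cdc20 (chr4:118437344-118437463, minus strand): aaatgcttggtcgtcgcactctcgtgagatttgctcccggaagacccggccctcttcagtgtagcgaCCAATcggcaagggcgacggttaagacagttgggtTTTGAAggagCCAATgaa
Cdk1 (chr10:69352913-69353032, minus strand): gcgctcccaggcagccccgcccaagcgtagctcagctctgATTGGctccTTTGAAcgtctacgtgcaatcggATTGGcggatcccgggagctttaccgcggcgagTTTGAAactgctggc
Ube2c (chr2:164769809-164769928, plus strand): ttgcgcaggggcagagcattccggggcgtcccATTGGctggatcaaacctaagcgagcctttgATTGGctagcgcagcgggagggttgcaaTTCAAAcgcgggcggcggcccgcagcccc
Mki67 (chr7:135716380-135716499, minus strand): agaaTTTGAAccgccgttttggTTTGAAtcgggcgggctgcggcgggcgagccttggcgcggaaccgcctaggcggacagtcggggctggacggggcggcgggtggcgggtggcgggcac
Ccnf (chr17:24251410-24251529, minus strand): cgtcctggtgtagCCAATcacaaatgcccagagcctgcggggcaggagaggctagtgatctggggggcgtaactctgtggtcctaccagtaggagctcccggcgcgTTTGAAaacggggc
Mcm6 (chr1:128359706-128359825, minus strand): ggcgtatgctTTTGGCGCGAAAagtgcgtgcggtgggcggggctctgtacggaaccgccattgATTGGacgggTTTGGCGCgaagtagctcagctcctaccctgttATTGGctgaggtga
Mcm3 (chr1:20820313-20820432, minus strand): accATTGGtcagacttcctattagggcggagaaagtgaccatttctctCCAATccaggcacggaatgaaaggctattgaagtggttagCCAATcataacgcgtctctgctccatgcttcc
Tk1 (chr11:117826015-117826134, minus strand): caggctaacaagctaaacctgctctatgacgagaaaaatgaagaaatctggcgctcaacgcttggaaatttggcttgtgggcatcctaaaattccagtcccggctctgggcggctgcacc

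In MCD livers the genes of mitosis rose together and the S-phase genes were split. Of the 41 genes, 31 were called higher and 2 lower (Tk1 and Ccnf), where 22.6% of all genes tested were called higher and 20.1% lower. Among the 26 mitotic genes 24 were higher and 1 was lower, with a median log2 fold change of 2.11. Among the 14 S-phase genes 6 were higher and 1 was lower, with a median of 0.29, beside a median of 0.07 for all genes. In 27 genes every MCD liver lay above every CD liver, and in 2 every MCD liver lay below; such groups without overlap made up 20.9% (higher) and 19.2% (lower) of all genes tested.

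In 10-week STAM livers the picture over these genes had the same shape. Called higher were 32 genes and lower 2, again Tk1 and Ccnf, against 25.3% and 22.5% of all genes tested. The 26 mitotic genes had 24 higher and 1 lower and a median of 2.16; the 14 S-phase genes had 7 higher and 1 lower and a median of 0.47. Every STAM liver lay above every control in 25 genes and below in 1, where 16.8% and 16.3% of all genes had groups without overlap. Between the diet model and the 10-week STAM model, which share no sample, 29 genes were called higher in both, out of 31 and 32. The share of all genes tested that was called higher in both was not counted. Cdc6 and Kif23 were called in MCD livers alone, and Aurkb, E2f1 and Rrm2 in STAM livers alone; of these 5, the test between the models called Rrm2.

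At 4 weeks STAM and control livers overlapped for all 41 genes when all 10 livers were used. By limma none was called higher and 1, Tk1, was called lower, and the counts were the same (0 higher and 1 lower) at an unadjusted p under 0.05 and with limma-voom on recovered reads, where 6.52% of all genes tested were higher and 3.27% lower, and groups without overlap made up 6.38% (higher) and 3.67% (lower). The median log2 fold change was 0.10 over the mitotic genes and 0.18 over the S-phase genes. Without control replicate 1, limma called 12 genes lower and 0 higher (23 lower and 1 higher at an unadjusted p under 0.05; background 4.72% lower and 7.18% higher). Of these 12, 11 are mitotic (Ccna2, Ccnb2, Aurkb, Foxm1, Ube2c, Bub1, Bub1b, Mki67, Cenpa, Cenpf and Birc5) and the other is Tk1. The mitotic median was then -0.80 and the S-phase median -0.25, and 9 genes, 7 of them mitotic and 2 of S phase, had every STAM liver below the 4 remaining controls (5.75% of all genes tested, with 7.82% in the higher direction). The calls and the sign of these medians thus turned on a single control library. The sign with all livers also turned on the averaging, since limma compares means of log values. Mean mitotic sums were 291 ± 77 CPM in STAM (SD, n = 5) and 399.8 ± 233 CPM in control livers (SD, n = 5) with that library included. The authors' deposited table, which includes it too, gives 25 of the 26 mitotic genes a 4-week change below 0 (median -0.49), with 0 of the 26 at an adjusted p under 0.05.

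**Figure D1:**
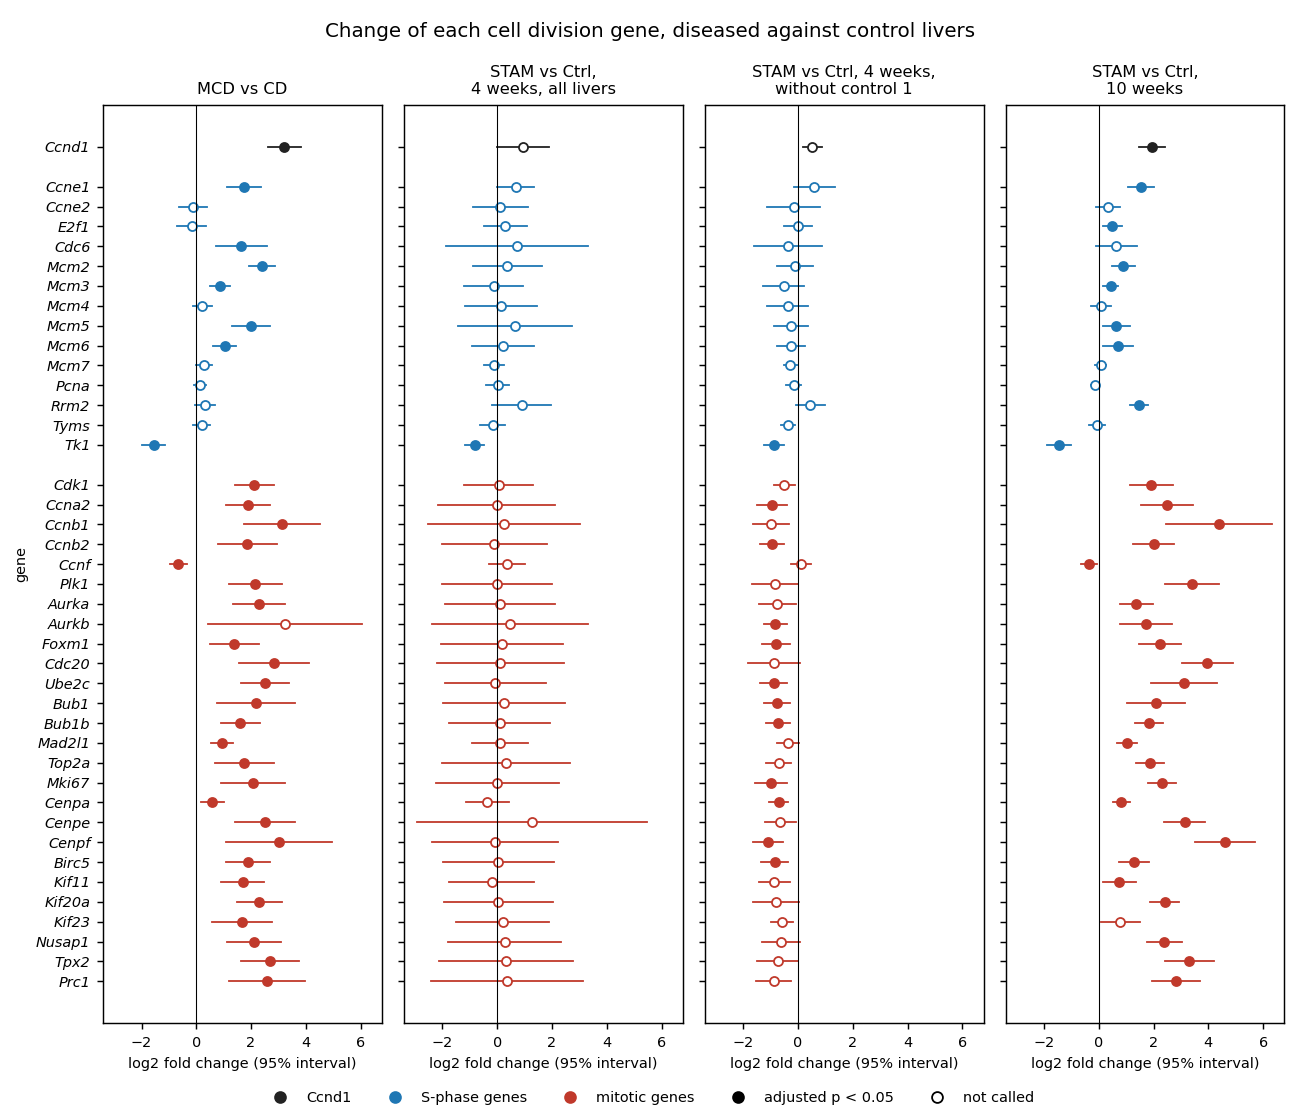
Log2 fold change of each of the 41 genes (points) with its 95% interval from limma (lines) in MCD against CD livers, in 4-week STAM against control livers with and without control replicate 1, and in 10-week STAM livers; filled points passed an adjusted p of 0.05. The 26 mitotic genes (red) lie to the right of 0 in the outer panels with the exception of Ccnf, and the 14 S-phase genes (blue) lie on both sides of it. Most 4-week intervals narrow once control replicate 1 is left out, while those of Ccne1 and Tk1 widen.

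Ccnd1 (NM_007631, chromosome 7, 144929931 to 144939925) encodes cyclin D1, the D-type cyclin induced when hepatocytes leave rest. MCD livers held 329.8, 339, 336 and 382 CPM and CD livers 66.9, 38.8, 30.9 and 24.1 CPM. The groups were far apart, with a mean of 347 ± 24 (SD, n = 4) against 40.2 ± 18.8 (SD, n = 4), and Ccnd1 rose by 3.21 on the log2 scale (95% interval 2.62 to 3.81, limma adjusted p = 1.35e-05), 9.28-fold. At 10 weeks the level in STAM livers was 81.7, 121, 58.0, 108 and 112 CPM, against 30.8, 20.5, 29.0, 22.8 and 18.8 CPM in controls. Here too no liver overlapped, and Ccnd1 rose by 1.96 on the log2 scale (95% interval 1.48 to 2.43, limma adjusted p = 5.70e-05). At 4 weeks STAM livers held 223, 236, 160.3, 181 and 133 CPM, the controls 2 to 5 126, 142, 109 and 133 CPM and control replicate 1 30.9 CPM. The 4-week change was 0.93 (limma adjusted p = 0.217) with all livers and 0.52 (limma adjusted p = 0.0576) without control replicate 1, so Ccnd1 missed the threshold either way. Per kilobase of transcript, Ccnd1 was the highest of the 41 genes in MCD (91.8 CPM per kb) and 10-week STAM livers (25.5), while Pcna led in CD livers and Tk1 in 10-week controls (28.1).

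The G1/S regulators are cyclin E1 and E2, which start replication with CDK2, and the factor E2F1. Ccne1 was at 2.56, 3.18, 2.09 and 3.80 CPM in MCD and 0.914, 0.568, 1.10 and 0.868 CPM in CD livers. It rose by 1.74 on the log2 scale (95% interval 1.14 to 2.35, limma adjusted p = 0.000309), with no overlap between the groups. STAM livers of 10 weeks held 4.44, 2.73, 3.86, 5.39 and 4.05 CPM against 1.98, 1.07, 1.44, 1.41 and 1.12 CPM in controls, again without overlap, and Ccne1 rose by 1.54 on the log2 scale (95% interval 1.07 to 2.01, limma adjusted p = 0.000103). Its sister gene Ccne2 had changes of -0.13 (limma adjusted p = 0.678) and 0.34 (limma adjusted p = 0.171) in those comparisons. E2f1 had a change of -0.17 (limma adjusted p = 0.599) in MCD livers. At 10 weeks E2f1 rose by 0.50 on the log2 scale (95% interval 0.15 to 0.85, limma adjusted p = 0.0212), a call lost without control replicate 2 (0.39). At 4 weeks the changes of Ccne1, Ccne2 and E2f1 were 0.68, 0.11 and 0.30 with all livers and 0.60, -0.16 and 0.00 without control replicate 1, and none was called.

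The replication genes were unequal even within one protein complex. MCM2 to MCM7 form the ring-shaped helicase that opens DNA, and CDC6 loads it onto origins. Mcm2 (NM_008564, chromosome 6, 88883474 to 88898780) was at 12.9, 16.2, 10.0 and 19.6 CPM in MCD livers and at 3.45, 2.17, 3.03 and 2.34 CPM in CD livers. All MCD livers were higher, and Mcm2 rose by 2.39 on the log2 scale (95% interval 1.91 to 2.87, limma adjusted p = 4.11e-06), 5.25-fold. Mcm5 rose by 1.98, Cdc6 by 1.64, Mcm6 by 1.03 and Mcm3 by 0.87 (limma adjusted p of these 4 between 0.000380 and 0.00773). Mcm4 and Mcm7, subunits of the same ring, had changes of 0.22 (limma adjusted p = 0.305) and 0.28 (limma adjusted p = 0.103); Mcm7 passed the threshold without MCD replicate 3 (0.37). At 10 weeks Mcm2 again had the largest change of the ring and Mcm4 and Mcm7 the smallest. Mcm2 was at 6.91, 8.73, 6.15, 9.60 and 9.99 CPM against 5.87, 3.84, 5.65, 4.13 and 2.95 CPM in controls. It rose by 0.90 on the log2 scale (95% interval 0.48 to 1.33, limma adjusted p = 0.00223), while Mcm6 rose by 0.69, Mcm5 by 0.64 and Mcm3 by 0.44 (limma adjusted p = 0.0394, 0.0316 and 0.0109). The Mcm6 call was lost without any one of control replicates 2, 4 and 5 and STAM replicates 2, 4 and 5 (0.54 to 0.71), and the Mcm5 call without any one of control replicates 2 and 5 and STAM replicates 2, 4 and 5 (0.46 to 0.60). Cdc6, Mcm4 and Mcm7 had changes of 0.64 (limma adjusted p = 0.148), 0.09 (limma adjusted p = 0.688) and 0.07 (limma adjusted p = 0.560). The E2F matches printed above for Mcm6 have no counterpart in the stretch printed for Mcm3, and Mcm3 has E2F matches downstream of its start.

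At 4 weeks none of the helicase genes was called. Mcm2 stood at 20.7, 22.2, 12.8, 10.9 and 7.82 CPM in STAM livers, at 14.1, 13.6, 15.0 and 17.8 CPM in controls 2 to 5 and at 2.64 CPM in control replicate 1. STAM livers 1 and 2 lay above every control and STAM livers 3 to 5 below controls 2 to 5, so that the change was 0.38 (95% interval -0.87 to 1.62, limma adjusted p = 0.753) with all livers and -0.12 (95% interval -0.78 to 0.54, limma adjusted p = 0.848) without control replicate 1. Mcm5 was at 12.7, 17.5, 18.5 and 20.7 CPM in controls 2 to 5 and at 0.709 CPM in control replicate 1, and its change, called in neither case, moved from 0.66 to -0.26 when that library was left out.

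Among the genes of nucleotide supply and the sliding clamp, 2 of 4 were called in some comparison. Pcna, the clamp that holds the polymerase on DNA and a common stain for dividing cells, was at 26.3, 29.8, 24.5 and 29.2 CPM in MCD livers and 24.4, 24.8, 24.8 and 26.6 CPM in CD livers. The ranges overlapped, and the change was 0.12 (95% interval -0.10 to 0.34, limma adjusted p = 0.349). In 10-week STAM livers Pcna stood at 23.0, 26, 21.9, 22.0 and 25 CPM against 26.1, 27.9, 25.8, 24.6 and 25.1 CPM, a change of -0.14 (95% interval -0.29 to 0.02, limma adjusted p = 0.126). The upper ends of these intervals bound a rise of Pcna under the authors' scaling; scaled by total reads, Pcna was called higher in MCD livers, by 0.55 (limma adjusted p = 0.00125). Tyms, the thymidylate synthase, had changes of 0.19 (limma adjusted p = 0.290) and -0.06 (limma adjusted p = 0.738). Rrm2, the regulated subunit of ribonucleotide reductase, was at 11.5, 11.8, 15.2, 17.6 and 14.7 CPM in 10-week STAM livers and 5.54, 4.42, 4.64, 6.99 and 4.11 CPM in controls. Every STAM liver was above every control, and Rrm2 rose by 1.47 on the log2 scale (95% interval 1.13 to 1.81, limma adjusted p = 1.20e-05). In the diet table Rrm2 was at 18.6, 17.2, 13.8 and 15.9 CPM in MCD livers and 17.9, 10.0, 13.8 and 11.9 CPM in CD livers, which overlap, with a change of 0.31 (limma adjusted p = 0.158) that passed the threshold without CD replicate 1 (0.46). At 4 weeks its change was 0.89 (limma adjusted p = 0.301) with all livers and 0.46 (limma adjusted p = 0.277) without control replicate 1.

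Tk1 was lower in all 3 comparisons. It encodes the cytosolic thymidine kinase, which salvages thymidine for DNA synthesis. MCD livers held 5.03, 3.66, 6.41 and 7.07 CPM and CD livers 15.6, 18.7, 15.0 and 14.2 CPM. Every MCD liver was lower, and Tk1 fell by 1.55 on the log2 scale (95% interval -1.97 to -1.13, limma adjusted p = 4.64e-05). At 10 weeks STAM livers held 15.7, 15.0, 20.6, 11.3 and 9.35 CPM against 36.8, 29.3, 38.4, 47.9 and 39.9 CPM in controls. The groups did not overlap, and Tk1 fell by 1.45 on the log2 scale (95% interval -1.89 to -1.01, limma adjusted p = 0.000159). At 4 weeks STAM livers held 21.4, 32.9, 19.9, 18.2 and 16.2 CPM, controls 2 to 5 38.1, 36.1, 39.3 and 41.5 CPM and control replicate 1 32.0 CPM. Tk1 fell by 0.82 on the log2 scale (95% interval -1.17 to -0.47, limma adjusted p = 0.00734) with all livers and by 0.88 without control replicate 1 (limma adjusted p = 0.00775). It remained called lower in the 3 comparisons with total-read scaling and with quantile normalization. Control replicate 1, far below its group in the mitotic genes, lay near the other controls for Tk1, and its printed upstream stretch holds no CHR, CCAAT or E2F match.

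Cyclin-dependent kinase 1 with cyclins A2, B1 and B2 drives entry into mitosis, Polo-like kinase 1 and the Aurora kinases act at centrosomes and kinetochores, and FOXM1 switches on many of these genes. With cyclin F these are 9 genes. Of them 7 were higher and 1 was lower in MCD livers, and 8 were higher and 1 lower in 10-week STAM livers. Over all genes tested, 22.6% were higher and 20.1% lower in MCD livers, and 25.3% and 22.5% at 10 weeks. The same shares stand beside the counts of the other roles below. Cdk1 was at 7.27, 8.58, 4.85 and 6.50 CPM in MCD and 2.74, 1.03, 2.04 and 0.935 CPM in CD livers. No MCD liver overlapped with CD, and Cdk1 rose by 2.12 on the log2 scale (95% interval 1.40 to 2.83, limma adjusted p = 0.000289). The 10-week STAM livers held it at 4.14, 4.27, 4.27, 5.15 and 5.72 CPM and in controls at 1.39, 0.389, 1.39, 2.06 and 1.78 CPM. It rose by 1.92 on the log2 scale (95% interval 1.13 to 2.71, limma adjusted p = 0.000980), also without overlap. Ccnb1, cyclin B1, had few reads in some control livers. It was at 6.76, 9.30, 3.60 and 7.42 CPM in MCD against 1.98, 0.620, 1.10 and 0.200 CPM in CD livers, and at 1.68, 2.86, 1.93, 3.51 and 3.67 CPM in 10-week STAM against 0.264, 0.0486, 0.431, 0.328 and 0 CPM in control livers. Its fitted rises of 3.12 and 4.39 (limma adjusted p = 0.00296 and 0.00180) depend on the prior added to low counts. Ccna2 rose by 1.89 and 2.49, Ccnb2 by 1.87 and 2.00, Plk1 by 2.16 and 3.40, Aurka by 2.29 and 1.37 and Foxm1 by 1.39 and 2.23, in MCD and 10-week STAM livers (limma adjusted p from 6.09e-05 to 0.0173). The MCD call of Foxm1 was lost without MCD replicate 2 (1.26) or MCD replicate 4 (1.18). Aurkb rose in 10-week STAM livers by 1.74 (limma adjusted p = 0.00563). In MCD livers its fitted change of 3.24 (95% interval 0.44 to 6.04, limma adjusted p = 0.0623) missed the threshold, which it passed without CD replicate 1 (3.78) or CD replicate 3 (3.86) or CD replicate 4 (1.85). The levels were 2.4, 2.25, 1.29 and 1.82 CPM against 0.609, 0.310, 0.717 and 0 CPM, without overlap.

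Ccnf encodes cyclin F, which binds no kinase and serves in a ubiquitin ligase. It was at 16.6, 20.9, 27.1 and 22.4 CPM in MCD and 33.0, 30.1, 39.2 and 33.1 CPM in CD livers. All MCD livers were lower, and Ccnf fell by 0.65 on the log2 scale (95% interval -0.97 to -0.34, limma adjusted p = 0.00284). At 10 weeks STAM livers had it at 21.3, 19.1, 24.4, 23.7 and 13.9 CPM against 22.2, 25.5, 25.8, 30.0 and 25.9 CPM, which overlap, and Ccnf fell by 0.36 on the log2 scale (95% interval -0.66 to -0.06, limma adjusted p = 0.0471). This call was lost without any one of control replicates 2, 3, 4 and 5 and STAM replicates 1, 2 and 5 (-0.22 to -0.38). With total-read scaling Ccnf was not called in either model (changes of -0.23 and -0.07). At 4 weeks its change was 0.37 (limma adjusted p = 0.503) with all livers and 0.10 (limma adjusted p = 0.775) without control replicate 1, which held 7.48 CPM against 15.7, 20.5, 20.6 and 20.9 CPM in the others. The window of Ccnf is among the 17 of 22 mitotic windows that hold both a CHR and a CCAAT box. Ccnb1, Birc5, Cenpe, Mad2l1 and Nusap1, which rose in both models, have no CHR match in their windows.

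At 4 weeks, of this group of 9, none was called with all livers. Without control replicate 1, 4 were lower, beside 4.72% of all genes tested. Cdk1 was at 13.0, 12.6, 12.0, 16.1 and 9.84 CPM in STAM livers, at 14.2, 14.5, 23.2 and 20.5 CPM in controls 2 to 5 and at 2.58 CPM in control replicate 1. Its change was 0.06 (95% interval -1.19 to 1.32, limma adjusted p = 0.969) with all livers and -0.49 (95% interval -0.86 to -0.12, limma adjusted p = 0.0838) without that library. Ccna2 stood at 17.9, 10.1, 18.2, 17.1 and 10.0 CPM in STAM livers and at 21.5, 22.4, 36.4 and 32.4 CPM in controls 2 to 5, with 1.03 CPM in control replicate 1. Left out, that library moved the change of Ccna2 from -0.01 to -0.96 (limma adjusted p = 0.0353), that of Ccnb2 from -0.10 to -0.95 (limma adjusted p = 0.00911), that of Aurkb from 0.46 to -0.83 (limma adjusted p = 0.0164) and that of Foxm1 from 0.18 to -0.81 (limma adjusted p = 0.0463).

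All 5 genes of the anaphase-promoting complex and the spindle checkpoint rose in both MCD and 10-week STAM livers. CDC20 activates the complex, UBE2C is its ubiquitin-conjugating enzyme, and BUB1, BUBR1 (Bub1b) and MAD2 (Mad2l1) hold it back until all chromosomes are attached. Cdc20 (NM_023223, chromosome 4, 118432901 to 118437343) was at 3.36, 3.73, 1.30, 4.26 and 4.35 CPM in 10-week STAM livers against 0.132, 0.291, 0.431, 0.0938 and 0.152 CPM in controls. The lowest STAM liver lay above the highest control, and Cdc20 rose by 3.96 on the log2 scale (95% interval 3.02 to 4.90, limma adjusted p = 1.39e-05), 15.6-fold. These controls held 2 to 9 reads of Cdc20 each, so the fitted size depends in part on the prior added to low counts. In MCD livers it was at 6.33, 6.12, 2.80 and 7.57 CPM and in CD livers at 2.03, 0.517, 1.05 and 0.267 CPM, again without overlap. Its rise there was 2.84 (limma adjusted p = 0.00265). Ube2c rose by 2.50 and 3.11, Bub1 by 2.19 and 2.10, Bub1b by 1.61 and 1.82 and Mad2l1 by 0.94 and 1.03, in MCD and 10-week STAM livers (limma adjusted p from 5.29e-05 to 0.0178). The MCD call of Bub1 was lost without CD replicate 2 (1.86) or MCD replicate 2 (2.02). At 4 weeks Cdc20 held 13.6, 6.30, 19.2, 21.1 and 10.5 CPM in STAM livers, 18.2, 15.3, 37.5 and 30.0 CPM in controls 2 to 5 and 0.774 CPM in control replicate 1. Controls 4 and 5 were the highest, STAM livers overlapped with controls 2 and 3, and the change without control replicate 1 was -0.87 (limma adjusted p = 0.234). Ube2c was at 4.43, 4.80, 4.75, 7.66 and 3.46 CPM in 4-week STAM livers, at 6.32, 8.20, 11.3 and 11 CPM in controls 2 to 5 and at 0.516 CPM in control replicate 1. Ube2c, Bub1 and Bub1b fell by 0.89, 0.76 and 0.73 without that library (limma adjusted p = 0.0270, 0.0449 and 0.0369), against changes of -0.07, 0.25 and 0.09 with it.

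Genes of mitotic chromosomes and kinetochores rose in 6 of 6 cases in both MCD and 10-week STAM livers. Mki67 encodes Ki-67, the coat protein of mitotic chromosomes used to count dividing cells. It was at 25.6, 32.6, 13.3 and 29.0 CPM in MCD and 13.3, 3.0, 7.39 and 3.60 CPM in CD livers. MCD replicate 3 and CD replicate 1 met at 13.3 CPM, and Mki67 rose by 2.06 on the log2 scale (95% interval 0.90 to 3.22, limma adjusted p = 0.0119). In 10-week STAM livers it was at 18.4, 18.9, 12.3, 23.7 and 19.8 CPM against 4.55, 2.23, 4.59, 4.88 and 2.74 CPM, with no overlap. There it rose by 2.33 on the log2 scale (95% interval 1.82 to 2.84, limma adjusted p = 1.21e-05), 5.01-fold. At 4 weeks STAM livers held 58.9, 33.5, 57.1, 68.0 and 36.5 CPM, controls 2 to 5 76.9, 78.0, 125 and 115 CPM and control replicate 1 3.09 CPM. All 5 STAM livers lay below the 4 controls and above the fifth, so that the change was 0.01 (95% interval -2.22 to 2.24, limma adjusted p = 0.997) with all livers and -0.98 (95% interval -1.56 to -0.40, limma adjusted p = 0.0411) without control replicate 1.

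Top2a, the topoisomerase that untangles sister chromosomes, was at 11.2, 11.1, 4.40 and 9.46 CPM in MCD and 5.33, 1.29, 3.70 and 1.54 CPM in CD livers, and at 5.34, 8.18, 4.64, 9.20 and 8.32 CPM in 10-week STAM against 2.57, 1.60, 2.11, 2.20 and 1.22 CPM in control livers. It rose by 1.76 in MCD and 1.87 in 10-week STAM livers (limma adjusted p = 0.0162 and 4.23e-05). Cenpf, a large kinetochore protein, had the largest fitted change of the 41 genes at 10 weeks. It was at 3.14, 3.77, 1.46, 4.26 and 3.88 CPM in STAM livers and 0.330, 0.0486, 0.239, 0.0938 and 0.0508 CPM in controls, where several livers are near the level of a single read, and rose by 4.60 on the log2 scale (95% interval 3.51 to 5.70, limma adjusted p = 1.39e-05). In MCD livers Cenpf was at 5.11, 5.96, 2.62 and 5.03 CPM, against 2.54, 0.155, 1.05 and 0.200 CPM in CD livers, with a rise of 3.02 (limma adjusted p = 0.0197) which missed the threshold without CD replicate 4 (2.55) or MCD replicate 1 (2.95) or MCD replicate 4 (2.96). The motor Cenpe rose by 2.51 and 3.14, the survivin gene Birc5 by 1.88 and 1.28, and Cenpa, the histone that marks centromeres, by 0.58 and 0.81 (limma adjusted p from 1.40e-05 to 0.0308). The MCD call of Top2a was lost without CD replicate 4 (1.52) or MCD replicate 4 (1.71), and that of Cenpa without any one of CD replicates 3 and 4 and MCD replicates 1, 2 and 4 (0.45 to 0.59). At 4 weeks Top2a was at 22.3, 17.9, 17.4, 29.8 and 14.5 CPM in STAM livers, 25, 30.5, 39.7 and 35.7 CPM in controls 2 to 5 and 0.838 CPM in control replicate 1, with changes of 0.34 (limma adjusted p = 0.889) with that library and -0.71 (limma adjusted p = 0.0513) without it. Cenpf was at 7.42, 5.94, 11.2, 12.4 and 7.49 CPM in STAM livers, 12.8, 17.4, 25.2 and 20.1 CPM in controls 2 to 5 and 0.516 CPM in control replicate 1. Without control replicate 1, Cenpf fell by 1.10, Birc5 by 0.85 and Cenpa by 0.70 at 4 weeks (limma adjusted p = 0.0180, 0.0337 and 0.0140), against -0.07, 0.05 and -0.36 with it, which were not called.

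**Figure D2:**
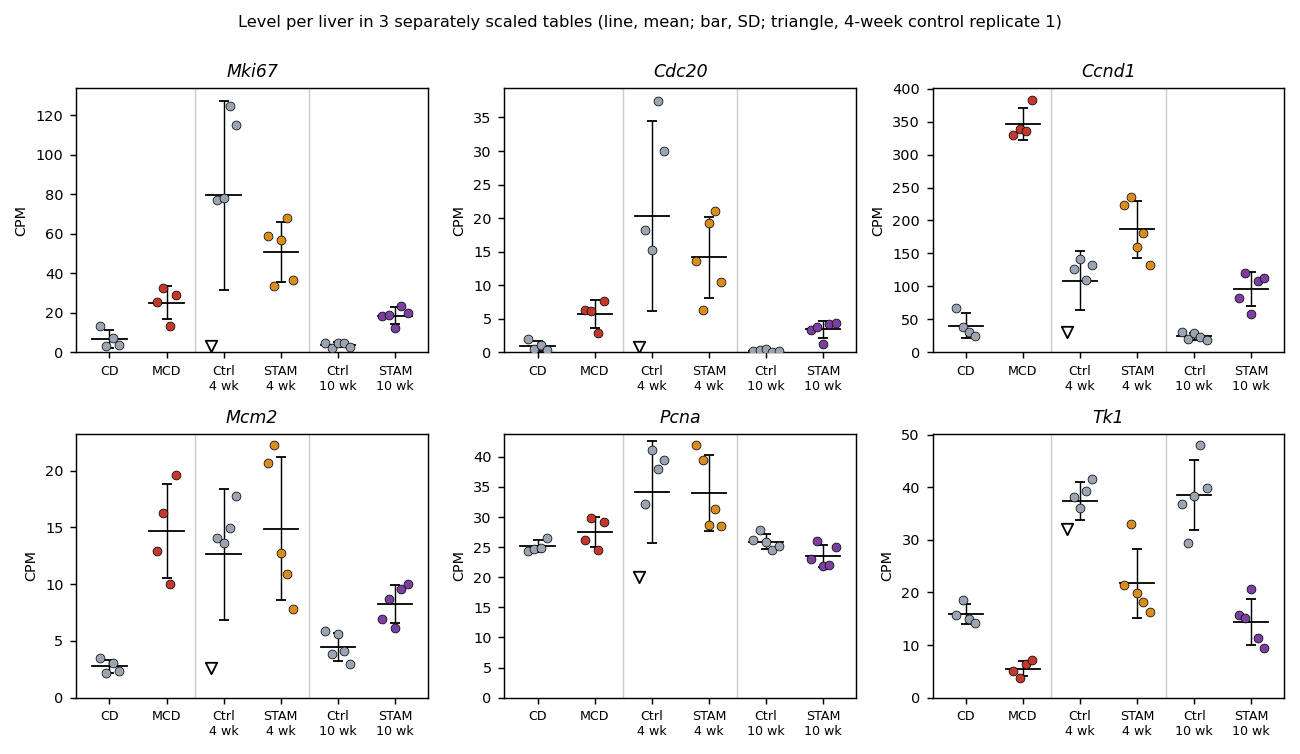
Level of 6 genes in each of the 28 livers (points) in CPM on linear axes, with group means (lines) and SD (bars); vertical lines separate the 3 tables, which the authors scaled separately. Mki67, Cdc20 and Mcm2 are higher in MCD and 10-week STAM livers than in their controls, Ccnd1 likewise, Pcna overlaps and Tk1 is lower, and the triangle, 4-week control replicate 1, lies below the other 4 controls in each panel, by the least for Tk1.

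The spindle and cytokinesis genes encode the motors KIF11, KIF20A and KIF23, which push spindle poles apart or work at the midzone, and the microtubule binders NUSAP1, TPX2 and PRC1. All 6 were called higher in MCD livers and 5 of 6 in 10-week STAM livers. Tpx2 was at 7.82, 7.61, 3.51 and 6.44 CPM in MCD and 1.93, 0.827, 1.38 and 0.334 CPM in CD livers, and at 2.65, 4.18, 2.14, 4.11 and 4.10 CPM in 10-week STAM against 0.528, 0.291, 0.383, 0.563 and 0.102 CPM in control livers. Neither pair of groups overlapped, and the rises were 2.69 and 3.31 (limma adjusted p = 0.00119 and 3.32e-05). Kif20a rose by 2.29 and 2.41, Nusap1 by 2.09 and 2.4 and Prc1 by 2.58 and 2.81 (limma adjusted p from 8.43e-06 to 0.00782). Kif11 rose by 1.69 in MCD livers and by 0.75 in 10-week STAM livers (limma adjusted p = 0.00242 and 0.0394), the later call being lost without any one of control replicates 1, 2 and 5 and STAM replicates 2, 4 and 5 (0.53 to 0.73). Kif23 rose by 1.67 in MCD livers (limma adjusted p = 0.0203). That call did not hold without MCD replicate 4 (1.41). At 10 weeks it had a change of 0.78 (limma adjusted p = 0.0631) and passed the threshold without control replicate 1 (0.92) or control replicate 4 (0.93) or STAM replicate 3 (0.94). At 4 weeks none of the 6 was called with or without control replicate 1; without it their changes lay between -0.88 (Prc1) and -0.59 (Kif23), and with it between -0.20 (Kif11) and 0.36 (Prc1).

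In 5 of the 6 groups the SD of the mitotic sum was a larger share of its mean than that of the S-phase sum (13.9% to 58.2% against 6.18% to 33.9%). Both upper ends are those of the 4-week controls with control replicate 1 included. The next largest shares among these groups were 29.3% (mitotic, CD livers) and 11.4% (S-phase, MCD livers). In 4-week STAM livers the mitotic share was 26.5% against 28.7%. Summed over the 26 mitotic genes, MCD livers 1 to 4 held 168.8, 197, 107 and 183 CPM and CD livers 100.6, 57.2, 84.0 and 55.7 CPM. MCD replicate 3 was the lowest of its group for 25 of 26 mitotic genes and 9 of 14 S-phase genes, and CD replicate 1 was the highest of its group for 21 mitotic genes. The summed S-phase level was 141, 142, 118 and 157 CPM in MCD and 116, 99.6, 111 and 101 CPM in CD livers. In 10-week STAM livers the mitotic sum was 105, 124, 90.1, 146 and 122 CPM, against 50.9, 43.2, 55.3, 61.3 and 46.6 CPM in controls, and replicate 3 was the lowest for 19 of 26 genes. There the S-phase sums overlapped, at 116 to 137 CPM in STAM and 114 to 137 CPM in control livers. Without Tk1, a choice made after its fall was seen, the sums of the other 13 genes did not overlap, at 100.3 to 127 CPM in STAM and 75.1 to 98.7 CPM in controls. These sums add reads of genes of unequal length and are led by the abundant ones.

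At 4 weeks the livers did not keep one order for both gene groups. STAM replicates 1 and 2 were between them the highest STAM livers for all 14 S-phase genes, 7 each. In the 26 mitotic genes STAM replicate 4 was the highest for 17, and replicates 2 and 5 were the lowest for 13 each. STAM replicate 2 thus had the highest S-phase sum of its group (297 CPM, range 154 to 297) and the lowest mitotic sum (207 CPM, range 207 to 389). Among controls, replicate 4 was the highest for 22 mitotic genes and replicate 5 for 13 S-phase genes. The mitotic sums of controls 2 to 5 were 365, 409, 640.4 and 551 CPM, and that of control replicate 1 was 33.1 CPM.

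**Figure D3:**
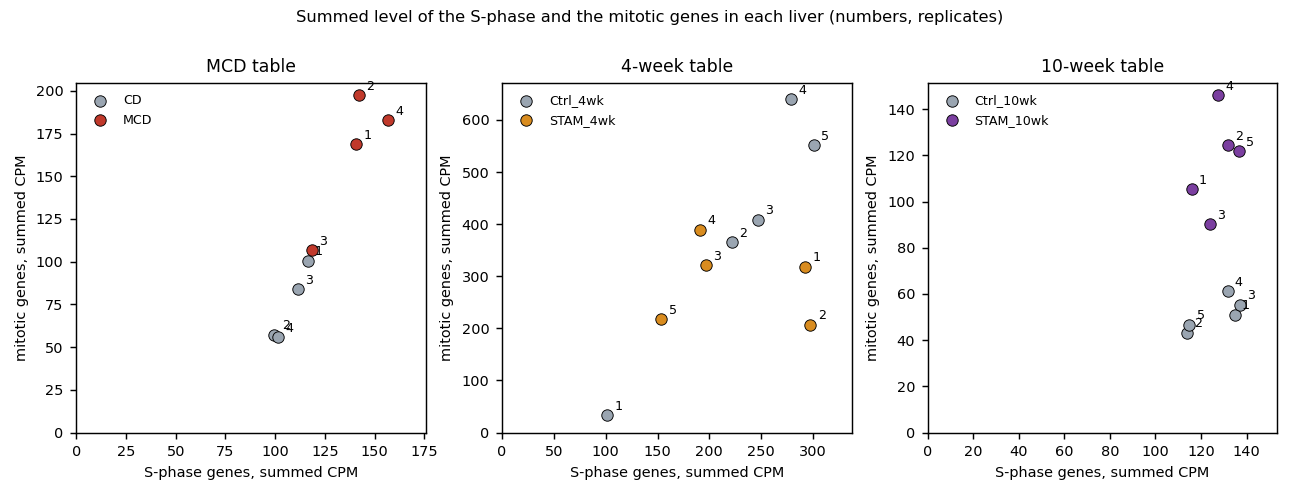
Summed level of the 14 S-phase genes (horizontal, CPM) against that of the 26 mitotic genes (vertical, CPM) in each liver of the 3 tables, with replicate numbers; all axes start at 0 and their scales differ between tables. In the 10-week table STAM and control livers separate along the vertical axis and overlap along the horizontal one, which includes Tk1, and in the 4-week table STAM livers 1 and 2 lie to the right of STAM livers 3 to 5, liver 2 with the lowest mitotic sum of the 5.

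**Figure D4:**
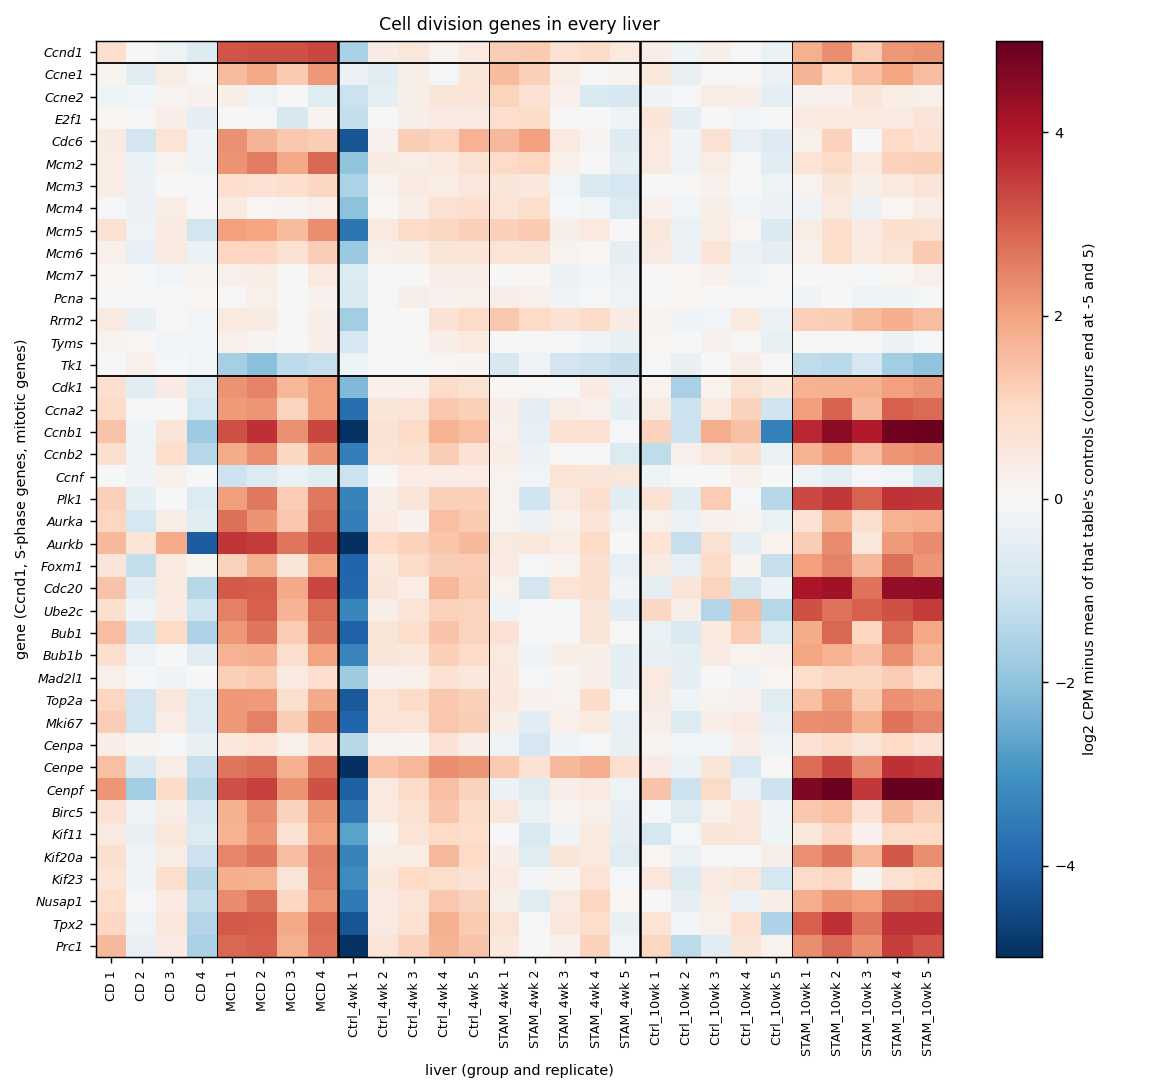
Log2 CPM of the 41 genes (rows, in order Ccnd1, S-phase and mitotic genes) in 28 livers (columns), each minus the mean of the controls of the same table; colours end at -5 and 5. The mitotic rows are mostly red in MCD and 10-week STAM livers, Ccnf excepted, Tk1 is blue in the STAM livers of both ages and in MCD livers, and 4-week control replicate 1 is blue over nearly all rows.

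Whether effects differed was tested as a difference of changes, each formed within its own table. The STAM change at 10 weeks minus that at 4 weeks was called higher for 5 genes and lower for 0 by limma (15 and 2 at an unadjusted p under 0.05), all 5 of them mitotic, where 8.89% of all genes were called higher and 11.2% lower. The differences were 4.68 (95% interval 2.24 to 7.11, limma adjusted p = 0.00914) for Cenpf, 3.85 (95% interval 1.47 to 6.22, limma adjusted p = 0.0233) for Cdc20, 3.40 (95% interval 1.35 to 5.45, limma adjusted p = 0.0201) for Plk1, 3.18 (95% interval 1.08 to 5.28, limma adjusted p = 0.0316) for Ube2c and 1.17 (95% interval 0.40 to 1.94, limma adjusted p = 0.0309) for Cenpa. Of these, Cenpf, Cdc20, Plk1 and Ube2c had 1 to 10 reads in each 10-week control. Without the 4-week control replicate 1, 29 genes were called higher and 0 lower (background 12.2% and 13.2%): 25 of the 26 mitotic genes, all but Ccnf, 3 S-phase genes (Mcm2, Mcm3 and Rrm2) and Ccnd1. Mki67 then differed by 3.30 (95% interval 2.52 to 4.09, limma adjusted p = 1.92e-05).

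Between the models, the MCD change minus the 10-week STAM change was called higher for 3 genes and lower for 1 (background 12.9% and 15%). These were Ccnd1 with 1.26 (95% interval 0.48 to 2.03, limma adjusted p = 0.0169), Mcm2 with 1.49 (95% interval 0.83 to 2.15, limma adjusted p = 0.00135), Mcm5 with 1.34 (95% interval 0.48 to 2.21, limma adjusted p = 0.0196) and Rrm2 with -1.16 (95% interval -1.67 to -0.65, limma adjusted p = 0.00139). None of the 26 mitotic genes was called in that test; their differences had a median of -0.23 and lay between -1.59 and 1.50, and single intervals were wide, for example -0.27 (95% interval -1.45 to 0.91, limma adjusted p = 0.770) for Mki67. The MCD change minus the 4-week STAM change was called higher for 3 genes (Ccnd1, Cdk1 and Mcm2) and lower for 2 (Ccnf and Tk1), with a background of 11.7% and 14.4%. Without control replicate 1 the counts were 33 higher and 1 lower (Ccnf), with a background of 14.2% and 15.7%, and the 33 include 25 mitotic genes and 7 S-phase genes. The STAM effect at 4 weeks and its control livers enter both of the tests that name them, so those counts are not independent.

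Further genes of the same processes, listed by role with earlier results of these data known, were counted in the same way. Of 48 other mitotic genes, 41 were higher and 3 lower in MCD livers (median 1.93), against 22.6% and 20.1% of all genes tested. In 10-week STAM livers 40 were higher and 3 lower (median 1.80), against 25.3% and 22.5%. The lower calls were a smaller share than over all genes. The largest fitted rises were those of Cdkn3 (5.07), a phosphatase that acts on CDK1 and CDK2, Ckap2l (3.28) and the checkpoint kinase Ttk (3.27) in MCD livers. At 10 weeks they were those of the phosphatase Cdc25c (4.37), Hmmr (4.26) and Cdkn3 (3.76), where Cdc25c and Cdkn3 had no read in at least 1 control, so that the fitted size depends on the prior added to low counts; the same holds for Cdkn3 and Orc1 in CD livers. The same 3 genes were lower in both models: the securin Pttg1 (by 1.16 and 0.35), the kinetochore gene Spc24 (by 1.03 and 0.58) and Cks2, a CDK-binding protein (by 0.54 and 0.34). With total-read scaling Pttg1 and Spc24 stayed called in MCD livers and none of the 3 at 10 weeks. At 4 weeks limma called 0 of the 48 with all livers (0 also at an unadjusted p under 0.05 and with limma-voom). Without control replicate 1, 18 were lower and 0 higher, for example Nuf2 (-1.01, limma adjusted p = 0.0264). Over all genes tested, 4.72% were lower and 7.18% higher without that library.

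Of 28 other S-phase genes, 14 were higher and 1 lower in MCD livers (median 0.69; background 22.6% and 20.1%). In 10-week STAM livers 8 were higher and 0 lower (median 0.33), a higher share near the background of 25.3%, with 22.5% of all genes lower. Orc1, a subunit of the origin recognition complex, rose by 2.96, the histone chaperone Chaf1a by 2.03 and Uhrf1, which carries DNA methylation through replication, by 1.86 in MCD livers. At 10 weeks Gins2, a helicase partner, rose by 1.19, the loading factor Cdt1 by 1.15 and Chaf1a by 1.12. None was called at 4 weeks with all livers, and without control replicate 1 Rfc5, a clamp-loader subunit, fell by 0.49. Of 10 G1 partners and activators 0 were higher and 2 lower in MCD livers, Ccnd3 (by 0.70) and Cdk2 (by 0.40). With total-read scaling 4 were higher and 0 lower, where 7588 of all 15312 genes tested were higher and 1222 lower. Under the authors' scaling, 4 of 10 were higher at 10 weeks, by at most 0.45 (Cdk6), and none was called at 4 weeks.

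Of 20 genes that brake the cycle, 7 were higher and 3 lower in MCD livers (background 22.6% and 20.1%), and 5 were higher and 2 lower in 10-week STAM livers (background 25.3% and 22.5%), where the higher share is that of all genes. With total-read scaling the counts were 13 and 1, and 10 and 0. Of all 15312 genes tested, that scaling called 7588 higher and 1222 lower in MCD livers, and 7019 and 953 at 10 weeks. Cdkn1a encodes p21, an inhibitor of cyclin-dependent kinases that p53 induces. It was at 54.7, 60.8, 60.0 and 47.5 CPM in MCD and 12.4, 5.53, 14.8 and 7.94 CPM in CD livers, a rise of 2.55 (limma adjusted p = 4.10e-05). In 10-week STAM livers it was at 38.0, 43.3, 39.0, 70.8 and 63.0 CPM against 3.37, 2.91, 4.26, 2.06 and 6.70 CPM, a rise of 3.78 (limma adjusted p = 8.73e-06). At 4 weeks STAM livers held 73.0, 88.4, 62.9, 82.9 and 91.5 CPM, controls 2 to 5 10.1, 22.6, 17.5 and 18.6 CPM and control replicate 1 4.64 CPM. It rose there by 2.62 with all livers and by 2.26 without control replicate 1 (limma adjusted p = 0.00438 and 0.000219). Cdkn1a groups overlapped in none of the 3 tables. Most of the 26 mitotic genes were higher in MCD and 10-week STAM livers. At 4 weeks none of the 26 was called with all livers, and 11 were lower without control replicate 1. A link between Cdkn1a and these genes was not tested. Cdkn2c, an inhibitor of CDK4 and CDK6, rose by 2.44 in MCD and 1.15 in 10-week STAM livers. Cdkn1c, which encodes the inhibitor p57, rose by 1.93 in MCD livers, and Btg2, an antiproliferative p53 target, rose by 1.67 in 10-week STAM livers. Without control replicate 1, the repressor gene E2f7 and Pkmyt1, a kinase that inhibits CDK1, fell at 4 weeks by 1.04 and 0.84.

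**Figure D5:**
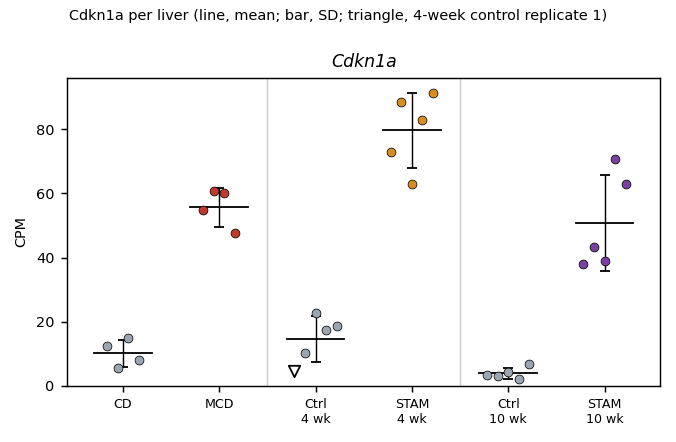
Level of Cdkn1a in each of the 28 livers (points) in CPM on a linear axis, with group means (lines) and SD (bars), in 3 tables separated by vertical lines. MCD livers and STAM livers of both ages lie above all controls of the same table, and 4-week control replicate 1 (triangle) is the lowest of its group.

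Cell type markers moved in the same livers, and their part in the changes of the cell division genes was not tested. Their counts stand beside backgrounds of 22.6% higher and 20.1% lower in MCD, 6.52% and 3.27% in 4-week and 25.3% and 22.5% in 10-week STAM livers. In MCD livers 6 of 8 macrophage and monocyte markers were higher (summed 304 to 589 CPM against 138 to 233 in CD), as were 3 of 5 neutrophil (12.9 to 24.5 against 4.34 to 12.0), 5 of 6 stellate cell (522 to 687 against 370.4 to 407) and 3 of 5 cholangiocyte markers (12.7 to 18.6 against 6.28 to 13.9), while 1 of 7 T and NK cell markers was lower. Hepatocyte markers were lower in 4 of 6 cases (63538 to 84466 against 70353 to 93056). With total-read scaling 2 were higher and 3 lower, where 7588 of all 15312 genes tested were higher and 1222 lower. At 10 weeks 8 of 8 macrophage (238 to 324 against 152 to 208), 4 of 5 cholangiocyte (7.32 to 23.1 against 2.77 to 6.17), 4 of 6 stellate cell (353 to 570.3 against 277 to 402; 1 was lower), 2 of 5 neutrophil (4 of them tested) and 2 of 7 T and NK cell markers (3.29 to 7.39 against 2.13 to 3.83, a share near the background) were higher, and 5 of 6 hepatocyte markers were lower (39728 to 54962 against 71724 to 96664). At 4 weeks 6 of 8 macrophage markers (235 to 308 against 153 to 197) and 3 of 5 cholangiocyte markers (10.4 to 12.8 against 3.29 to 8.89) were higher, with and without control replicate 1. The summed hepatocyte markers were lower there without overlap (101103 to 116491 against 123778 to 144842 CPM), with 1 of 6 called lower, or 3 without control replicate 1. Of the stellate cell markers 1 of 6 was lower (346 to 424 against 398 to 476 CPM), or 2 without that library, which also made 1 neutrophil marker higher. B and plasma cell markers were called in none of the 3 comparisons and summed to at most 10.1 CPM. The 6 erythroid and myeloid progenitor markers summed to 52.5 to 78.5 CPM in MCD and 241 to 322 in CD livers, with 1 of the 4 tested called lower. At 10 weeks they summed to 45.4 to 88.6 CPM in STAM and 85.7 to 147 in control livers, with 2 higher and 1 lower, and at 4 weeks none was called. Of the 5 endothelial markers 2 were lower in MCD livers, 2 lower at 4 weeks, and 2 higher and 1 lower at 10 weeks. No marker list held a gene with 3 reads or fewer over both groups of a comparison.

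The authors' deposited table carries its own fold changes and adjusted p-values. At an adjusted p under 0.05 in it, 32 of the 41 genes were higher and 2 lower in MCD livers, 0 higher and 1 lower in 4-week STAM livers, and 32 higher and 1 lower in 10-week STAM livers, where 30.3%, 7.02% and 32.3% of its 20416 genes passed in either direction. The authors' deposited table gives Mki67 log2 fold changes of 1.88 in MCD, -0.65 in 4-week STAM and 2.29 in 10-week STAM livers.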

How the data were processed

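Poly(A) RNA of whole mouse liver was sequenced as stranded paired-end libraries, per the labels' protocols. Per the submitters' processing notes, reads were aligned with STAR 2.4.2a to mm10; no source used here names the read counter, the annotation release or the authors' test. Each of 3 deposited tables holds log2 CPM per library, scaled by the authors within that table, with the authors' log2 fold changes, p-values and adjusted p-values per gene and gene lengths in bases. All sample columns were used (0 were left out).

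From the log2 values, reads were recovered with the prior of 0.25 reads that they carry; all values came out whole within 0.05 reads. CPM printed here is without that prior. Effects were fitted with limma 3.58.1 (R 4.3.3, variance trend and robust estimation with statmod 1.5.0), 1 fit per table, on genes whose mean level exceeded the 25th percentile, with Benjamini-Hochberg adjustment over all of them. Differences between effects came from 1 fit of 4 groups without a shared control. The planned test for counts was replaced by limma because the files hold log2 values. The code was tested on simulated data. Alternatives were no filter, a filter at the 50th percentile, a prior of 2 reads, total-read and quantile scaling, limma-voom, no robust estimation, the replicate number as a block, and leaving out each library.

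The 41 genes, the other gene lists, the marker lists and the rule for named genes (per-liver values for 6 fixed genes and for the called member with the largest change per role and comparison, and at most 3 called genes per other list) were chosen with earlier results of these data known. Beyond that rule, Mcm5, Ccnf, Aurkb, Ccna2, Ube2c and the 3 lower mitotic genes outside the 41, and genes of the rule in comparisons for which it did not pick them, were added after their values were seen. Gene positions and promoter windows are from RefSeq, build GRCm38.p6.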

Additional observations from a re-analysis of the deposited data

Results flagged for a closer look

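Values of 41 genes in 6 groups of 4 or 5 livers, 246 sets in all, were searched for a highest or lowest liver far from the rest by Dixon's criterion, for which chance gives about 1 set in 20. It was met in 40 sets, 34 of them the lowest value in the 4-week control replicate 1, where 41 sets were searched.

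In that library the log2 CPM was 4.95 for Ccnd1. Among S-phase genes it was 1.72 for E2f1, -3.69 for Cdc6, 1.41 for Mcm2, 2.30 for Mcm3, 1.72 for Mcm4, -0.47 for Mcm5 and 2.95 for Mcm6. Among cyclins, kinases and their factor it was 1.37 for Cdk1, 0.063 for Ccna2, -1.88 for Ccnb1, -0.47 for Ccnb2, 2.91 for Ccnf, -1.11 for Plk1, -0.75 for Aurka, -3.69 for Aurkb and -1.32 for Foxm1. For the anaphase-promoting complex and checkpoint it was -0.35 for Cdc20, -0.92 for Ube2c, -2.82 for Bub1, -0.60 for Bub1b and 1.75 for Mad2l1. Chromosome and kinetochore genes stood at -0.23 for Top2a, 1.64 for Mki67, 2.30 for Cenpa, -6.25 for Cenpe (no read there), -0.92 for Cenpf and -0.75 for Birc5. Spindle and cytokinesis genes stood at 0.58 for Kif11, 0.45 for Kif20a, -1.58 for Kif23, -1.32 for Nusap1, -1.32 for Tpx2 and -1.88 for Prc1.

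The other 6 values lay in 4 livers. MCD replicate 3 was far below its group, at a log2 CPM of 2.01 for Ccna2 and 1.07 for Cenpe. STAM replicate 3 of 10 weeks was low as well, at 0.40 for Cdc20 and 0.56 for Cenpf. STAM replicate 5 of 10 weeks was high, at 2.98 for E2f1, and 10-week control replicate 2 was low, at -1.32 for Cdk1.

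The STAM effect differed between 10 and 4 weeks by the interaction test for 5 genes, by 3.40 for Plk1, 3.85 for Cdc20, 3.18 for Ube2c, 1.17 for Cenpa and 4.68 for Cenpf on the log2 scale, all larger at 10 weeks.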

How the results depend on the processing

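The 4-week comparison depended on a single library: leaving out 1 library at a time, 1 to 12 of the 41 genes were called lower, 12 of them without control replicate 1, and 0 were called higher in every case. Over all genes tested, these fits called 278 to 722 lower, 722 of them without control replicate 1, and 704 to 1099 higher. Without that control 6 genes whose change was above 0 with all livers were called lower: Aurkb (-0.83, and up to 0.87 without another library), Foxm1 (-0.81, up to 0.50), Bub1 (-0.76, up to 0.61), Bub1b (-0.73, up to 0.39), Mki67 (-0.98, up to 0.35) and Birc5 (-0.85, up to 0.40). The signs of 19 more genes, called in neither case, changed too. Without it, 29 genes in place of 5 were higher in the STAM effect at 10 weeks minus 4 weeks, and 33 higher and 1 lower, in place of 3 and 2, in the MCD effect minus the 4-week effect.

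In MCD livers the count of higher genes was 31, and 26 to 33 when 1 library was left out; in 10-week STAM livers it was 32, and 28 to 33. The lower count was 2 in MCD livers for each library left out, and 1 to 2 at 10 weeks. Over all genes tested, the fits with 1 library left out called 2955 to 3336 higher and 2695 to 2901 lower in MCD livers. At 10 weeks they called 3462 to 3886 higher and 3116 to 3535 lower. With the filter at the 50th percentile the higher counts were 11 and 10, of 19 and 16 members that this filter leaves, where 2070 and 2091 of 10208 genes tested were higher. Total-read scaling gave 1 lower gene in MCD livers, where 1222 of 15312 genes tested were lower. At 10 weeks 1 gene was lower with no filter, with total-read scaling, with quantile normalization and without robust estimation. Over all genes tested, 3150 of 20416 were lower with no filter, and 953, 3436 and 3450 of 15312 with the other settings, in that order. Quantile normalization gave 3 genes higher for 10 minus 4 weeks (1172 of 15022 genes tested), 2 lower for MCD minus 10-week STAM (2159 of 14986) and 1 lower for MCD minus 4-week STAM (1931 of 14962). Total-read scaling gave 7 higher and 0 lower in that last test, where 4634 of 14962 genes tested were higher and 1005 lower. The cause was not tested. Limma-voom on recovered reads called 32 members higher and 2 lower in MCD livers, 0 and 1 at 4 weeks and 33 and 2 at 10 weeks, and 6459, 1488 and 7255 of all genes, against 6541, 1500 and 7319 by limma.

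Same-numbered livers did not deviate together (correlations of -0.411 to 0.0242, none best with its own number). Whether livers of the same number were handled together was not tested. With that number as a replicate block, 31 genes were higher and 2 lower in MCD livers, 0 and 1 at 4 weeks, and 30 and 2 at 10 weeks. Of all 15312 genes tested, 2945 were then higher and 2562 lower in MCD livers, 641 and 207 at 4 weeks, and 3493 and 3073 at 10 weeks. Over all genes at 4 weeks, 848 were called in place of 1500. In a promoter window from 100 bases before the start, a CHR stood in 77.3% of mitotic, 7.692% of S-phase and 8.587% of all windows. Depth limits the genes with few reads in controls, such as Ccnb1, Cenpf, Aurkb, Plk1, Cdc20, Ube2c and Bub1.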
